A study of Drosophila melanogaster with 6 samples.

Results

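The genes described here are 10 planar polarity genes of Drosophila, 6 of the core pathway (fz, stan, Vang, pk, dsh and dgo) and 4 of the Fat-Dachsous pathway (ft, ds, fj and app). They were chosen by name from their known roles, with earlier results of these data known. They are 10 of the 15132 genes summed from the deposited transcripts. The study sequenced polyA+ RNA of imaginal leg discs, the larval epithelial sacs that become the adult legs, in order to list genes with small open reading frames that are expressed there. Animals of both stages carried the white [1118] genotype and no other allele or treatment is given. One stage was wandering L3 larvae (wL3), taken before the ecdysone peak, and the other was 2 hours after pupal formation (2h APF), when the disc begins to turn outward, with 3 libraries each. The deposited extraction text speaks of embryos, while the tissue entries and the design name leg discs, which was followed here. Nothing states whether the libraries of a stage came from separate dissections, so the p-values measure the spread between these libraries, which may be technical.

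Planar polarity is the common orientation of cells within the plane of an epithelium. In the core pathway, Frizzled (fz), Dishevelled (dsh) and Diego (dgo) gather on one side of a cell, Van Gogh (Vang) and Prickle (pk) on the opposite side, and the cadherin Starry night (stan, also called Flamingo) joins both sides across the cell border. In the other pathway the giant cadherins Fat (ft) and Dachsous (ds) bind each other between neighbouring cells, the Golgi kinase Four-jointed (fj) phosphorylates their cadherin domains and so tunes that binding, and the palmitoyltransferase Approximated (app) acts downstream of Fat. In the fly leg, mutants of the core genes have misoriented bristles and extra or misplaced tarsal joints, and mutants of ft, ds, fj or app have shortened or fused tarsal segments.

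Each library held between 24395318 and 33373176 estimated counts, with a median of 33011849 at wL3 and 28177781 at 2h APF. A member gene had between 1560 and 27084 counts in a library. The summed level of 4 leg disc markers (Dll, dac, Antp and ap) ran from 1020 to 1035 CPM at wL3 and from 873 to 930 CPM at 2h APF, where CPM is the count scaled to library size with edgeR's TMM method. Markers of other cells were also present, and their summed levels overlapped between the stages for fat body and for none of the other lists. The 6 differentiated muscle markers summed to 55.1, 258 and 238 CPM in wL3 replicates 1, 2 and 3 and to between 40.1 and 41.5 CPM at 2h APF, where Tm2 was at 0 in every library. The 5 fat body markers summed to 32.3, 3333 and 2211 CPM at wL3 and to between 188 and 857 CPM at 2h APF, so that wL3 replicates 2 and 3 stood apart from replicate 1. The 5 hemocyte markers ran from 137 to 284 CPM at wL3 and from 20.8 to 27.8 CPM at 2h APF, and the 5 salivary gland markers between 51.0 and 195 CPM and between 0.176 and 0.272 CPM. The 4 disc myoblast markers were between 164 and 172 CPM and between 213 and 226 CPM, the 2 tracheal markers between 120 and 124 CPM and between 126 and 132 CPM, and the 2 markers of neurons and glia between 85.5 and 95.5 CPM and between 101 and 106 CPM. Single markers did not all follow these sums. The libraries of dac and ap (leg disc), Mef2 (myoblast), Act57B (muscle), trh (trachea) and elav (neurons) overlapped between the stages. At 2h APF the muscle sum was mostly Act57B, at 34.3 to 36.1 CPM. The part of these cells in the results was not tested, and in whole discs fewer cells of a type and less RNA per cell cannot be told apart.

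Of the 10 genes, 5 were higher at 2h APF (stan, ds, dgo, fj and Vang), 2 were lower (pk and app), and 3 did not pass the test (fz, dsh and ft). The steps were small. The largest was a ratio of the mean CPM of 1.53, for stan, and none of the 10 passed a log2 fold change of 1 in either direction. Over all 8935 genes with enough counts for edgeR's filter, 30.6% were called higher and 36.9% lower at an adjusted p under 0.05 (edgeR quasi-likelihood test, Benjamini-Hochberg), and 9.74% and 8.89% were called beyond 1 log2 unit in these directions. All 10 genes passed that filter. The libraries of the stages did not overlap in CPM for 7 of the 10 genes, against 73.4% of all genes, so a separation of the stages was no rarer in general than among these genes. The median log2 fold change of the 10 genes was 0.13, beside -0.04 over all genes, and their median absolute change was 0.28, beside 0.39.

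**Figure D1:**
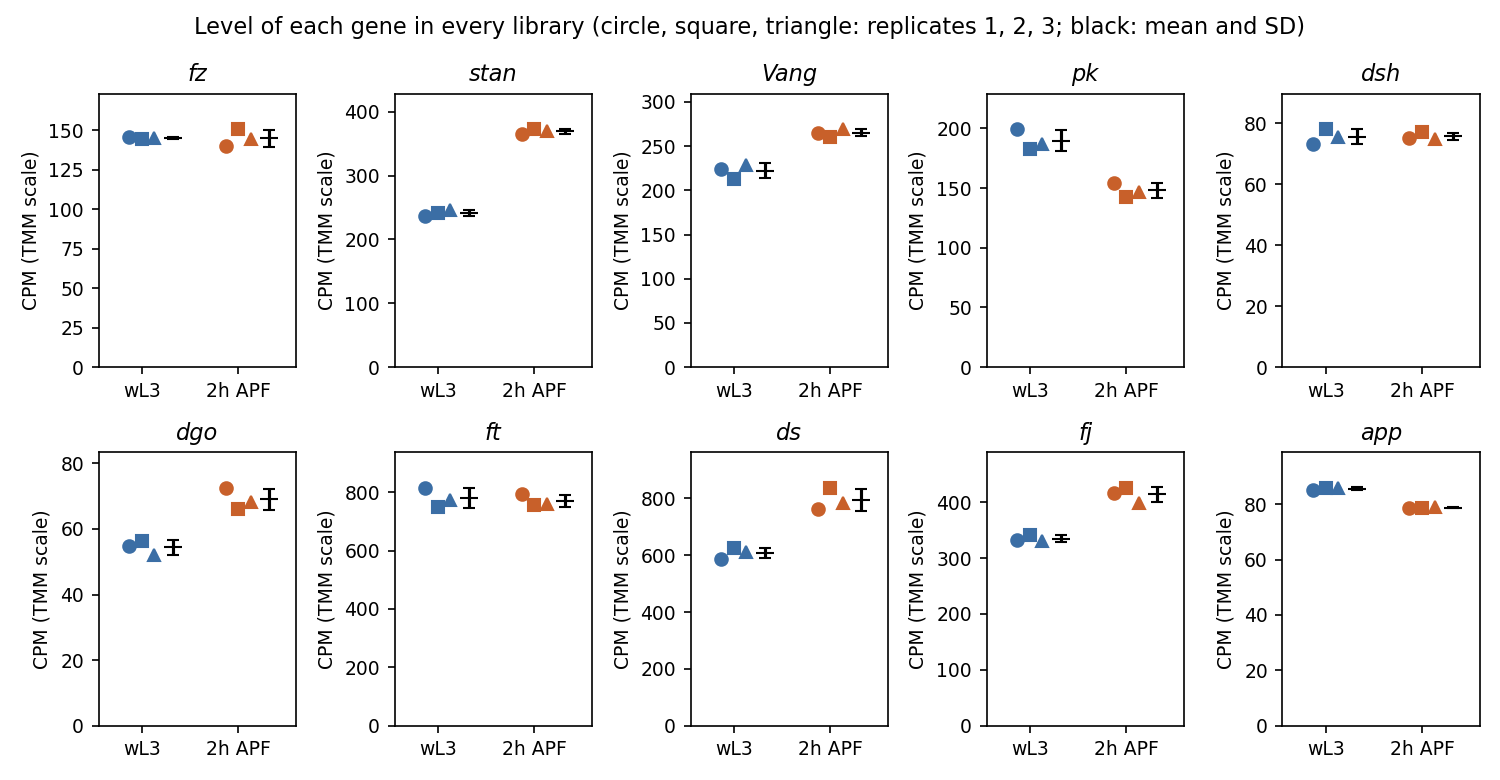
Level of each of the 10 genes in every library, in CPM on the TMM scale from 0, with replicates 1, 2 and 3 as circle, square and triangle and the mean and SD of each stage in black. The 3 libraries of a stage lie close together, and the stages separate for stan, Vang, pk, dgo, ds, fj and app but not for fz, dsh and ft.

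In the core pathway, stan had the largest change. It encodes an atypical cadherin with a serpentine membrane part that pairs with itself across cell borders, and it lies at 2R:10673345-10721138 on the plus strand (positions here and below are of the BDGP6.54 annotation, matched by transcript identifier). Its level was 237, 241 and 246 CPM at wL3 and 365, 373 and 370 CPM at 2h APF. Every 2h APF library was above every wL3 library, by far more than the spread within a stage. The log2 fold change was 0.61 (SE 0.028, adjusted p = 3.28e-06, edgeR).

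The level of fz did not pass the test between the stages. The gene encodes the Frizzled receptor and spans 94.3 kb at 3L:14274343-14368639. It was read at 146, 145 and 145 CPM at wL3 and at 140, 151 and 145 CPM at 2h APF, so that the stages overlapped and the ratio of their means was 0.999. The adjusted p was 0.983 (edgeR), and the 95% interval of the log2 fold change ran from -0.09 to 0.08.

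The cytoplasmic adaptor that Frizzled recruits showed the same lack of a call. The gene dsh (X:11355881-11358724) was at 73.2, 78.0 and 75.6 CPM at wL3 and at 75.3, 77.0 and 74.9 CPM at 2h APF. The values of 2h APF lay within the range of wL3. The adjusted p was 0.951 (edgeR), with a 95% interval of the log2 fold change from -0.08 to 0.09.

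The third gene of that side, dgo, which encodes an ankyrin repeat protein that binds Dishevelled, rose. It lies at 2R:10816037-10819884 and was at 54.7, 56.4 and 52.1 CPM at wL3 and 72.6, 66.2 and 68.3 CPM at 2h APF. The stages did not overlap, and the log2 fold change was 0.34 (SE 0.049, adjusted p = 0.000650, edgeR).

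On the opposite side of the cell, Vang and pk moved in opposite directions. Vang (2R:9103238-9106796), which encodes the multipass membrane protein Van Gogh, was at 224, 213 and 229 CPM at wL3 and at 265, 261 and 269 CPM at 2h APF. All 2h APF libraries were higher, with a log2 fold change of 0.26 (SE 0.036, adjusted p = 0.000637, edgeR). Its cytoplasmic partner pk (2R:7150703-7223378), a LIM domain protein, was at 199, 183 and 187 CPM at wL3 and at 155, 142 and 147 CPM at 2h APF. All 2h APF libraries were lower, and the log2 fold change was -0.36 (SE 0.046, adjusted p = 0.000407, edgeR), the largest fall among the 10 genes.

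In the Fat-Dachsous pathway, the genes of the ligand and of the kinase rose while ft did not pass the test. The gene ft (2L:4198404-4221796), which encodes the receptor-like giant cadherin Fat, was at 816, 751 and 775 CPM at wL3 and at 794, 756 and 759 CPM at 2h APF. The stages overlapped, the adjusted p was 0.674 (edgeR) and the 95% interval of the log2 fold change ran from -0.11 to 0.07. The gene of its binding partner, ds (2L:640013-714983), was at 588, 624 and 612 CPM at wL3 and at 762, 838 and 785 CPM at 2h APF. Every 2h APF library was higher, with a log2 fold change of 0.39 (SE 0.044, adjusted p = 0.000202, edgeR). The exons of ds share 125 of 12427 bases (1.01%) with lncRNA:CR44988 on the opposite strand. The library kit marks strand, but whether the read assignment used it is not given in the sources used here.

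The kinase gene fj (2R:18232761-18236311) was at 333, 341 and 330 CPM at wL3 and at 417, 426 and 400 CPM at 2h APF. The stages were well apart, with a log2 fold change of 0.31 (SE 0.034, adjusted p = 0.000186, edgeR). The palmitoyltransferase gene app (3L:12206238-12266841) was at 85.1, 85.8 and 86.0 CPM at wL3 and at 78.5, 78.7 and 78.9 CPM at 2h APF. This was the smallest called difference of the 10 genes, -0.12 on the log2 scale (SE 0.028, adjusted p = 0.00710, edgeR), between stages whose libraries agreed closely. The call of app was lost with DESeq2 (-0.08, adjusted p = 0.139), without wL3 replicate 1 (-0.09, adjusted p = 0.0520, edgeR) and without wL3 replicates 2 and 3 (-0.13, adjusted p = 0.0705, edgeR), the libraries with the most fat body RNA. In each of these fits pk was the only one of the 10 genes called lower, and 5 stayed called higher.

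The scaling between libraries touched the 3 genes near 0. When libraries were scaled by their total counts alone, the median log2 fold change of all genes moved from -0.04 to -0.16 and the share of calls that were higher from 45.3% to 35.1%. Then fz, dsh and ft were called lower (log2 fold changes of -0.11, -0.11 and -0.13 with adjusted p of 0.0127, 0.0365 and 0.0246, edgeR), which gave 5 lower calls, and the 5 higher calls remained 5. Relative to the median of all genes the 3 genes were at 0.04, 0.05 and 0.02 in the TMM fit and at 0.04, 0.05 and 0.03 with total library size.

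**Figure D2:**
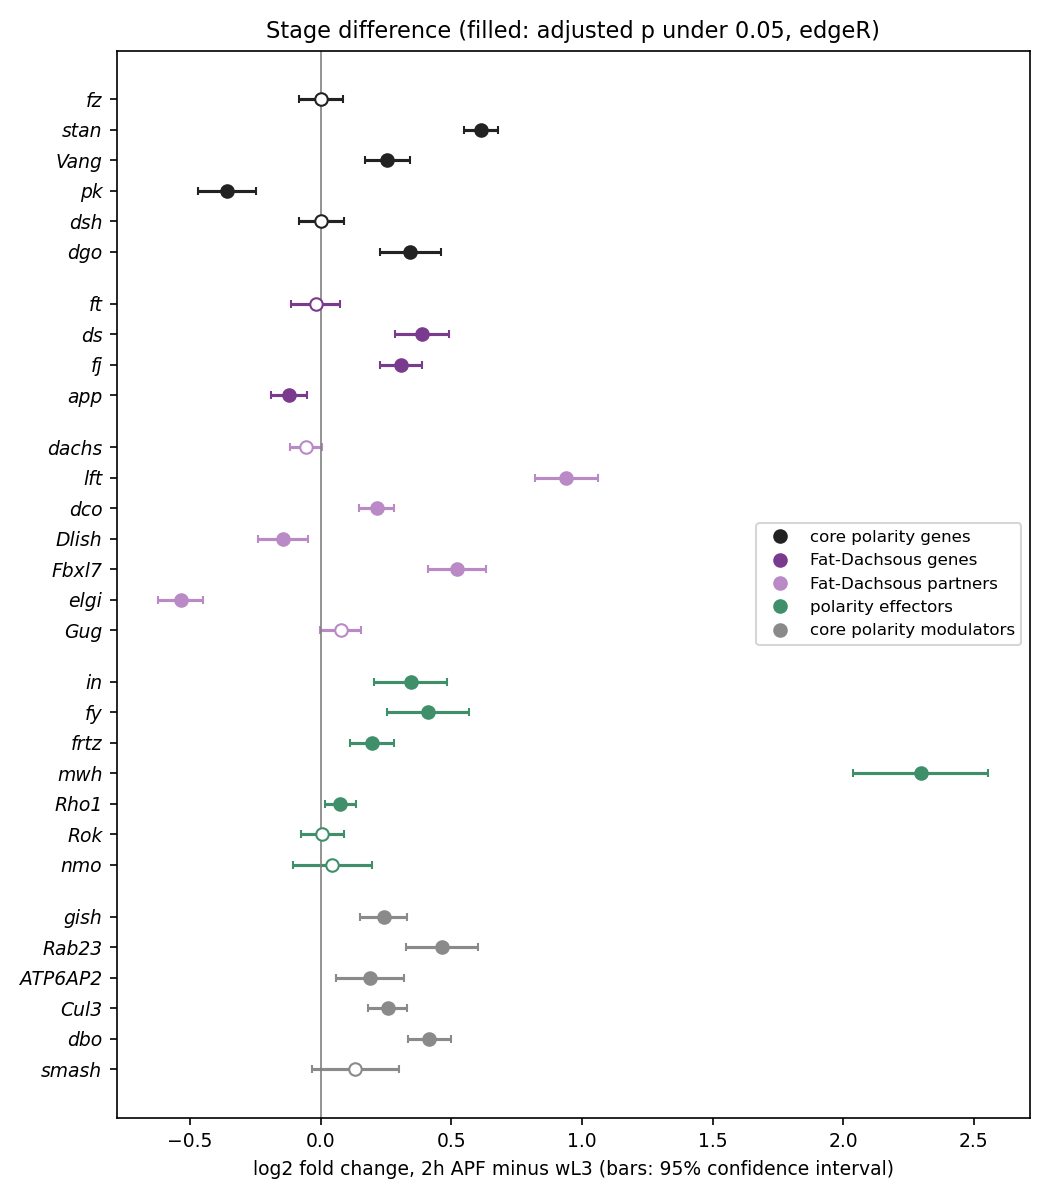
Log2 fold change (2h APF minus wL3) of the 10 genes and of the genes of 3 further lists, with 95% confidence intervals and filled points for an adjusted p under 0.05 (edgeR). Among the 10 genes stan is farthest to the right at 0.61 and pk farthest to the left at -0.36, and mwh among the effectors lies beyond all others at 2.30.

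Ratios within a library do not depend on the scaling between libraries. The ratio of ds counts to ft counts was 0.721, 0.832 and 0.790 in the wL3 libraries and 0.960, 1.11 and 1.03 in the 2h APF libraries, which is a difference of 0.41 in the mean log2 ratio. In TPM, which is scaled to transcript length, the same ratio was 0.984, 1.14 and 1.08 at wL3 and 1.31, 1.51 and 1.41 at 2h APF, so that ds stood near ft at wL3 and above it at 2h APF. The ratio of fj to ft went from 0.408, 0.455 and 0.426 to 0.525, 0.564 and 0.526 (a difference of 0.33). The ratio of fz to Vang, the membrane proteins of the opposite sides of a cell, went from 0.649, 0.680 and 0.635 to 0.528, 0.578 and 0.538 (-0.26). The ratio of dsh to pk, their cytoplasmic partners, went from 0.367, 0.427 and 0.404 to 0.487, 0.541 and 0.509 (0.36). In all 4 ratios the stages did not overlap, and the exact two-sided permutation test gave p = 0.1 for each (0.1 after adjustment over the 4), which is the smallest p that 3 libraries against 3 allow. No ratio could therefore pass the 0.05 threshold. Each ratio pairs a gene called between the stages (ds, fj, Vang or pk) with one that was not (ft, fz or dsh). The ratios thus restate the changes of single genes and are not further results. How many ratios of other gene pairs separate was not counted, while 73.4% of single genes did.

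**Figure D3:**
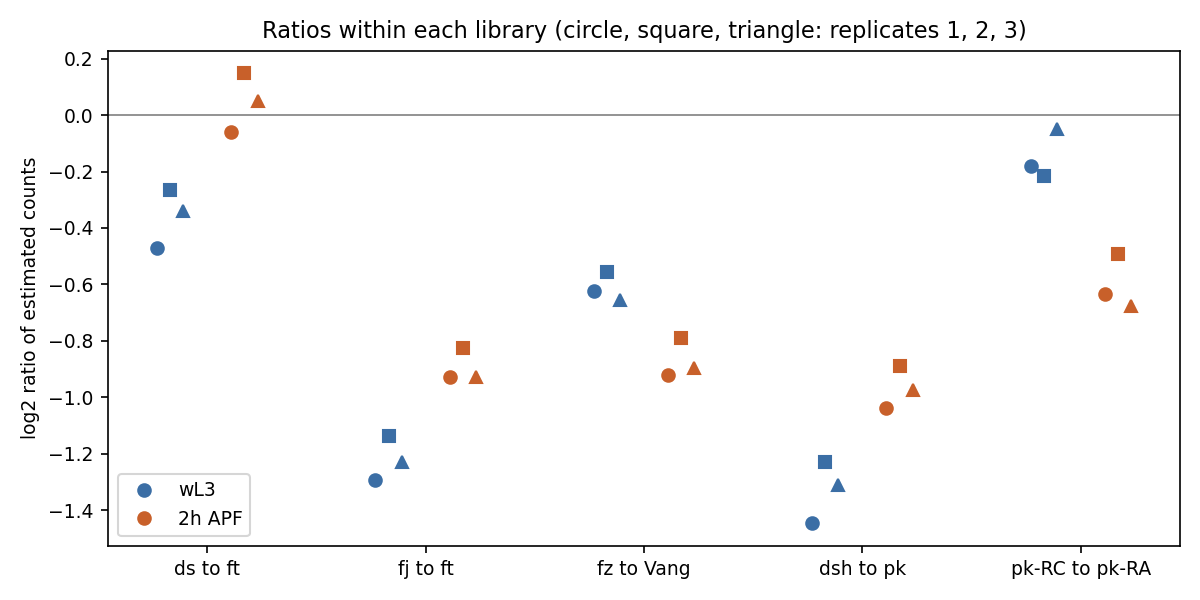
Log2 ratio of the estimated counts of paired genes within each library, wL3 in blue and 2h APF in orange, with replicates 1, 2 and 3 as circle, square and triangle. The stages do not overlap in any of the 4 gene ratios or in the ratio of pk-RC to pk-RA. Counts are not scaled to transcript length, so the place of a ratio relative to 0 does not compare the levels of its genes.

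The order of the 10 genes by level was read in TPM. At wL3 the most abundant was fj with 118 TPM (SD 2.36, n = 3), followed by Vang at 79.7, ds at 58.2, ft at 54.7, pk at 50.2, fz at 47.3, dsh at 33.8, app at 24.6, stan at 22.3 and dgo at 21.7 TPM. In this order the libraries of neighbouring genes overlapped for ds and ft and for stan and dgo, and the other neighbours did not overlap. At 2h APF the order began in the same way, with fj at 146 TPM (SD 4.56, n = 3), Vang at 95.2, ds at 76.2 and ft at 54.0 TPM. It went on with fz at 47.3, pk at 39.9, stan at 34.1, dsh at 33.9, dgo at 27.6 and app at 21.8 TPM. Here ds and ft no longer overlapped, and stan and dsh were the only neighbours that did. Between the stages pk passed below fz, stan passed above app and overlapped with dsh, and app became the lowest. Of the genes for the membrane proteins of opposite cell sides, Vang was above fz in TPM at both stages.

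The transcripts of pk encode proteins with different starts, and the shares of the main forms, pk-RA and pk-RC, did not overlap between the stages. The deposited list holds pk-RA, for a protein of 963 amino acids, pk-RB, for 1029, and pk-RC, for 1299, the longest form, known as Spiny-legs. In the fly, the balance of the Prickle and Spiny-legs forms sets the direction of polarity in several tissues. The estimated counts of pk-RC were 46.8%, 46.0% and 48.7% of the gene's counts at wL3 and 38.8%, 40.2% and 37.9% at 2h APF, and those of pk-RA were 53.0%, 53.4% and 50.4% and then 60.3%, 56.4% and 60.6%. The pk-RC share was lower and the pk-RA share higher in every 2h APF library, and pk-RB held at most 3.42% in any library. With pk-RB so low, the pk-RA and pk-RC shares nearly mirror each other and are not separate results. The number of genes whose transcript shares separate in this way was not counted.

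Among 17433 transcripts tested together, 20.1% were called higher and 22.3% lower (edgeR). In that fit pk-RC fell, with a log2 fold change of -0.66 (SE 0.055, adjusted p = 0.000275), and pk-RA did not pass the test at -0.21 (adjusted p = 0.0652), though with total library size it did (-0.29, adjusted p = 0.0226, edgeR). The ratio of pk-RC to pk-RA counts was 0.883, 0.861 and 0.966 at wL3 and 0.644, 0.712 and 0.625 at 2h APF, a difference of -0.45 in the mean log2 ratio. This ratio was chosen after the values were seen. Its exact permutation p was 0.1, the smallest possible, and it was not adjusted. The split of reads between transcripts that share exons carries an assignment error that the deposited values do not give.

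**Figure D4:**
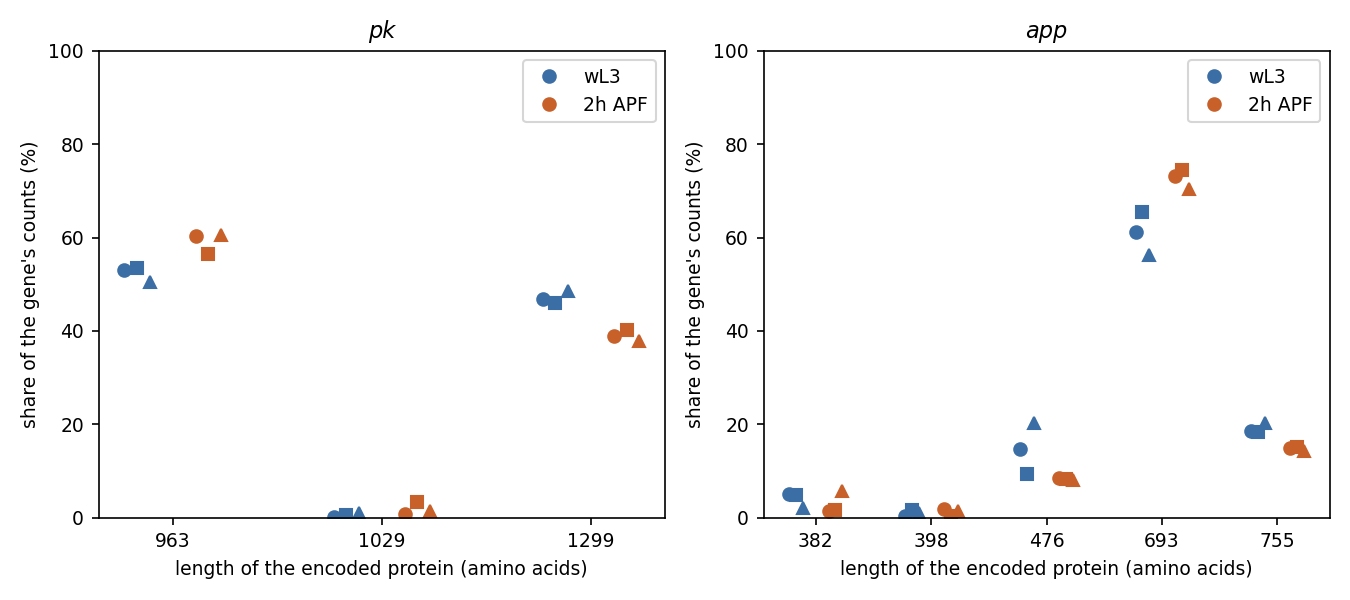
Share of the estimated counts of pk (left) and app (right) held by transcripts that encode a protein of each length, in percent of the gene's counts in every library (wL3 blue, 2h APF orange, replicates 1, 2 and 3 as circle, square and triangle). The share of the 1299 residue form of pk runs from 46.0% to 48.7% at wL3 and from 37.9% to 40.2% at 2h APF, and that of the 693 residue form of app runs from 56.3% to 65.6% at wL3 and from 70.4% to 74.4% at 2h APF.

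The app gene had the most transcripts, 9 in the deposited list, for proteins of 382 to 755 amino acids. Transcripts for the 693 residue protein held 61.2%, 65.6% and 56.3% of its counts at wL3 and 73.3%, 74.4% and 70.4% at 2h APF. Those for the 755 residue protein held 18.6%, 18.4% and 20.3% and then 14.8%, 15.3% and 14.3%, and the transcript for the 476 residue protein, app-RS, held 14.7%, 9.47% and 20.3% and then 8.44%, 8.27% and 8.03%. None of these 3 shares overlapped between the stages, while the small shares of the 382 and 398 residue forms did. How many transcript shares separate among all genes was not counted, so these separations have no general share beside them. The shares of a gene add up to its whole, so the 3 separations are not independent of each other. Of the single transcripts, app-RS was called lower with a log2 fold change of -0.995 (SE 0.279, adjusted p = 0.0314, edgeR), a call that was lost when any one of wL3 replicates 1 and 3 or 2h APF replicates 1, 2 and 3 was left out, with adjusted p between 0.0764 and 0.0928. Of the other app transcripts with at least 10% of the gene's counts in a library, app-RJ (-0.45, adjusted p = 0.119), app-RK (-0.58, adjusted p = 0.0784), app-RL (0.23, adjusted p = 0.499) and app-RM (0.07, adjusted p = 0.852) did not pass the test (edgeR). Without wL3 replicate 1, app-RK (-0.73, adjusted p = 0.0240) and app-RL (0.55, adjusted p = 0.0307) did.

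For the other genes the transcript values added less. The 2 transcripts of fz (proteins of 581 and 612 amino acids) had the same values as each other in every library, as did those of Vang (581 and 608), so these forms could not be told apart. The same held for stan-RC and stan-RF (3579 and 3648), which together held between 84.1% and 94.0% of the counts of stan and rose by a log2 fold change of 0.56 (adjusted p = 0.000448, edgeR). The small share of the 3578 residue form of stan did not overlap between the stages either. It ran from 1.82% to 2.71% at wL3 and from 0.967% to 1.70% at 2h APF. Both transcripts of dgo encode 927 amino acids. The main one, dgo-RA, rose by 0.29 (adjusted p = 0.00632, edgeR), and dgo-RB, with at most 11.2% of the counts, was at 0.59 (adjusted p = 0.292, edgeR). A single transcript stood for each of dsh, ft, ds and fj.

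The genes differ widely in length. The 6 genes that span more than 20 kb (fz, stan, pk, ft, ds and app, from 23.4 to 94.3 kb) had log2 fold changes from -0.36 to 0.61, and the 4 below 5 kb (Vang, dsh, dgo and fj, from 2.84 to 3.85 kb) from 0.00 to 0.34. Of the 5 genes on chromosome arm 2R, stan, Vang, dgo and fj rose and pk fell. Over all genes 30.6% were called higher and 36.9% lower, and the other genes of 2R were not counted.

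Around the 10 genes, 5 lists of 36 related genes were described in the same fit, in which 30.6% of all genes were called higher and 36.9% lower. These lists too were chosen with earlier results of these data known, so their counts describe the lists and do not test them. Of 7 partners of Fat and Dachsous, 3 were higher, 2 were lower and 2 did not pass the test, shares near those of all genes, with a median log2 fold change of 0.08 (-0.04 over all genes). The level of lft, which encodes the Lowfat protein that binds the inner parts of Fat and Dachsous, was 140, 123 and 128 CPM at wL3 and 247, 255 and 249 CPM at 2h APF (log2 fold change 0.94, SE 0.050, adjusted p = 5.94e-06, edgeR). That was a larger step than for any of the 10 genes. The F-box gene Fbxl7, whose product acts downstream of Fat, rose by 0.52, and dco, the casein kinase I that phosphorylates Fat, by 0.21. The ubiquitin ligase gene elgi fell by 0.54, and Dlish, which encodes an SH3 protein that works with Dachs, fell by 0.14, a call that was lost with DESeq2 (-0.10, adjusted p = 0.120), without wL3 replicate 1 (-0.09, adjusted p = 0.125, edgeR) and without wL3 replicates 2 and 3 (-0.19, adjusted p = 0.0559, edgeR). The unconventional myosin gene dachs was at -0.06 (adjusted p = 0.0935, edgeR) and was called lower with total library size (-0.17, adjusted p = 0.000799). The corepressor gene Gug was at 0.08 (adjusted p = 0.0788, edgeR), and it was called higher without wL3 replicate 1 (0.11, adjusted p = 0.0297), without 2h APF replicate 1 (0.11, adjusted p = 0.0221), with DESeq2 (0.12, adjusted p = 0.00210) and with a minimum of 10 counts (0.11, adjusted p = 0.0114).

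Of 7 genes listed as effectors downstream of the core genes, 5 were higher, 0 were lower and 2 did not pass the test. Their median was 0.20. Over all genes 30.6% were higher and 36.9% lower. Multiple wing hairs (mwh), which encodes a formin-like protein that restrains actin prehairs, was at 10.6, 8.57 and 8.42 CPM at wL3 and at 42.4, 50.0 and 43.2 CPM at 2h APF. Its ratio of the means was 4.92 and its log2 fold change 2.30 (SE 0.11, adjusted p = 3.74e-06, edgeR), and it was the only effector beyond 1 log2 unit. The genes in, fy and frtz, whose products form the complex that localizes Multiple wing hairs, rose by log2 fold changes of 0.34, 0.41 and 0.20. The GTPase gene Rho1 was at 0.08 (adjusted p = 0.0325, edgeR) and was at -0.04 (adjusted p = 0.251) with total library size, and its call was lost without any one of wL3 replicates 2 and 3 and 2h APF replicates 1, 2 and 3 (adjusted p between 0.0616 and 0.175, edgeR). With total library size frtz was not called either (0.09, adjusted p = 0.0847, edgeR), and Rok, the kinase that Rho1 activates, was called lower (-0.10, adjusted p = 0.0348), while under TMM it was at 0.01 (adjusted p = 0.882). Without wL3 replicates 2 and 3, in (0.28, adjusted p = 0.0641) and frtz (0.15, adjusted p = 0.128) were not called (edgeR). The Nemo kinase gene nmo was at 0.04 (adjusted p = 0.564, edgeR) and was called higher without wL3 replicate 1 (0.15, adjusted p = 0.0335).

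Of 6 genes listed as modulators of the core pathway, 5 were higher, 0 were lower and smash did not pass the test. Their median was 0.25. Over all genes 30.6% were higher and 36.9% lower. The vesicle traffic GTPase gene Rab23 rose by 0.46, dbo and Cul3, which encode parts of a ubiquitin ligase that acts on Dishevelled, by 0.42 and 0.26, and the casein kinase gene gish by 0.24. The proton pump accessory gene ATP6AP2 rose by 0.19 (adjusted p = 0.0193, edgeR). Its call was lost with total library size (0.08, adjusted p = 0.183) and without any one of wL3 replicates 2 and 3 and 2h APF replicates 2 and 3 (adjusted p between 0.0541 and 0.0710, edgeR). The gene smash was at 0.13 (adjusted p = 0.136, edgeR), and it was called higher without wL3 replicate 1 (0.25, adjusted p = 0.00365) and with DESeq2 (0.18, adjusted p = 0.0379).

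Relatives of the 10 genes by family were also read. Of 4 Frizzled family genes, 1 was higher, 2 were lower and fz4 did not pass the test (0.02, adjusted p = 0.581, edgeR). The shares of all genes were 30.6% higher and 36.9% lower. With total library size fz4 was called lower (-0.09, adjusted p = 0.0274, edgeR). The gene smo, the Hedgehog signal transducer, fell by 0.54 on the log2 scale and fz3, a Wingless target, by 0.31. The Wingless receptor gene fz2 rose by 0.10 (adjusted p = 0.00939, edgeR), which was -0.01 (adjusted p = 0.644) with total library size and was not called without wL3 replicate 2 (0.10, adjusted p = 0.0573). Of 12 other cadherin genes, Cad88C was not matched and was not analysed here, and the 11 tested were all higher under TMM, with a median of 0.49, beside 30.6% of all genes called higher. Cad89D is among the 11, but it passed the filter only through its 2h APF counts, so its call adds no support to this tally. With total library size 9 of the 11 were called higher, and kug (0.02, adjusted p = 0.732) and CadN (0.06, adjusted p = 0.419) were not (edgeR). The call of CadN was also lost without any one of 2h APF replicates 1, 2 and 3 (adjusted p between 0.0606 and 0.0971, edgeR). In both limma fits on TPM it was lost too (adjusted p of 0.0539 and 0.0546). Cad87A was at 280, 272 and 268 CPM at wL3 and at 554, 595 and 566 CPM at 2h APF (log2 fold change 1.06, SE 0.037, adjusted p = 1.65e-06, edgeR), and Cad96Cb rose by 0.76. Cad89D had at most 1 count in a wL3 library and was at 2.13, 5.59 and 4.11 CPM at 2h APF, at least 40.9-fold higher than a floor of 3 counts per wL3 library.

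**Figure D5:**
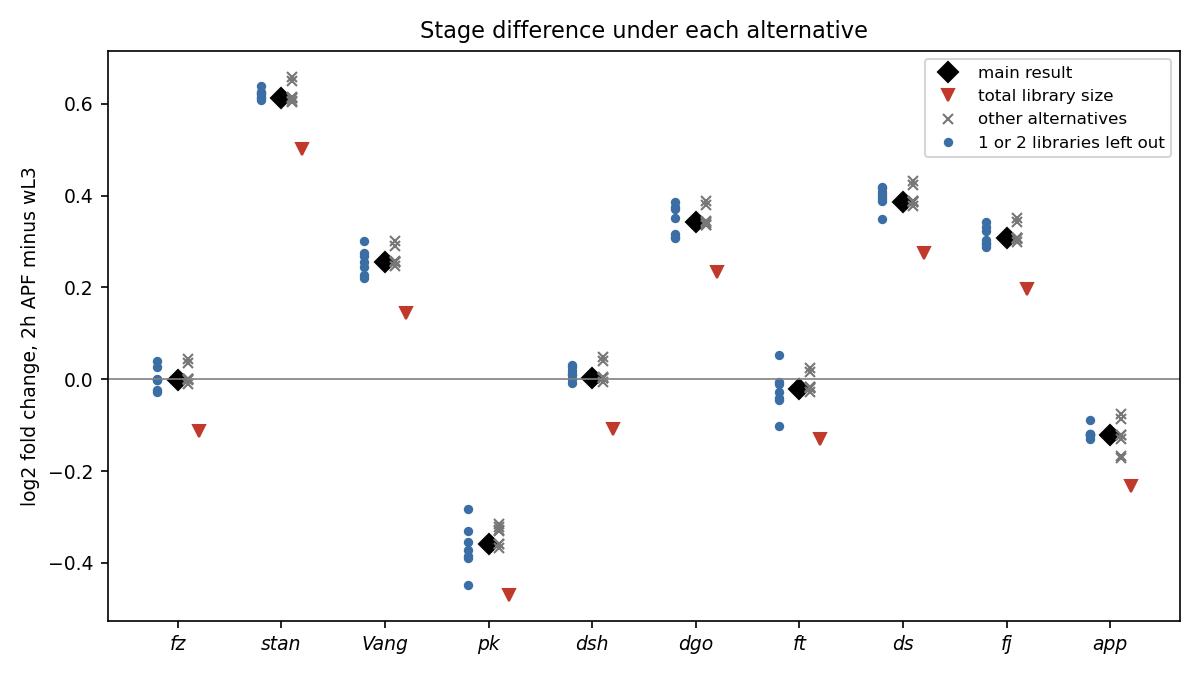
Log2 fold change (2h APF minus wL3) of the 10 genes in the main result (diamond), with total library size (red triangle), with 1 or 2 libraries left out (blue points) and under the other alternatives (grey crosses). stan, Vang, dgo, ds and fj stay above 0 and pk and app below 0 under every setting drawn, while fz, dsh and ft lie on both sides of 0.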

How the data were processed

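The 3 leg disc libraries of each stage were read as paired ends of 100 bases from polyA+ RNA. With kallisto (version not given in the sources used here) the authors estimated transcript abundance against Ensembl 74 and added lincRNAs. They deposited 1 table per library, with an estimated count and a TPM value for each of 42506 targets and no scaling between libraries. The submitters' processing notes also name sleuth and dm3. Here 27011 targets were matched by FlyBase identifier to genes of the BDGP6.54 annotation (Ensembl release 115), which held between 96.4% and 96.6% of the counts. The sum of a gene's estimated counts was rounded to a whole number, and genes whose values were identical across the libraries were merged into one.

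The stage test was edgeR 4.0.16 under R 4.3.3 (TMM, filterByExpr, quasi-likelihood test, Benjamini-Hochberg over all genes, called at an adjusted p under 0.05) without a replicate block, and transcripts in the same way. Intervals are at 95%. Alternatives used DESeq2 1.42.0 and limma 3.58.1 on log2(TPM + 0.5) or log2(TPM + 0.1) for genes averaging 1 TPM or more, total library size, other filters, unmatched targets as features, the block, and libraries left out. On data simulated for 9040 genes, the gene fit called 53 of 70 genes changed by 0.5 log2 units, 75 of 75 changed by 1, 55 of 55 changed by 2, and 6 of 8840 unchanged genes. The simulation gave all genes the same dispersion, placed changes only in well covered genes and held no outlying library. These counts therefore check the fit and do not measure its power or false calls in the real libraries. Python 3.11.15 with scipy 1.17.1, pandas 2.3.3, numpy 2.4.6 and matplotlib 3.10.9 made the tables and figures.

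The 10 genes and the lists were chosen with earlier results of these data known. All 10 are named, with every gene of the partner, effector and modulator lists, the 3 largest called changes in each direction among Frizzled relatives and other cadherins, and transcripts of the 10 genes with at least 10% of the gene's counts in a library. A few further genes, such as fz4, kug and CadN, are named where their calls are described. Leaving out wL3 replicates 2 and 3 together was added after the data were seen.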

Additional observations from a re-analysis of the deposited data

How the results depend on the processing

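The log2 fold changes of stan (0.50 to 0.66), Vang (0.14 to 0.30), dgo (0.23 to 0.39), ds (0.27 to 0.43), fj (0.20 to 0.35) and pk (-0.47 to -0.28) kept their direction and their call under the 15 alternatives that tested against a change of 0. Under these app kept its direction (-0.23 to -0.08). Fewer genes were called when tested against a log2 fold change of 0.5, as given below. The 3 genes near 0 changed sign. fz was at 0.0448 with DESeq2, 0.0351 with a minimum of 10 counts in every library, 6.01e-05 and 5.77e-05 with limma on TPM, and from -0.0273 to 0.0398 with 1 library left out. dsh was at -0.11 with total library size, -0.00558 with unmatched targets as features, and from -0.00760 to 0.0279 with 1 library left out. ft was at 0.0250 with DESeq2, 0.0161 with a minimum of 10 counts, and from -0.0460 to 0.0522 with 1 library left out. The transcript app-RM was at -0.0183 with total library size and from -0.12 to 0.33 with 1 library left out. The causes were not tested.

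Of the 10 genes, 5 were called lower with total library size, 1 with DESeq2, 1 without wL3 replicates 2 and 3, and from 1 to 2 with 1 library left out. Of all 8935 genes tested, 4107 were called lower with total library size and 2834 with DESeq2. Tested against a log2 fold change of 0.5 (edgeR glmTreat), 1 of the 10 genes was higher and 0 were lower. The share of all genes that passed this last test is not given here, so its counts have no general share beside them. The partners called lower numbered 1 with DESeq2 and from 1 to 2 with 1 library left out. With total library size 3 effectors were higher and 1 lower, and 0 Frizzled relatives were higher. With no filter on low counts 0 Frizzled relatives were higher, and with 1 library left out from 0 to 1. Among all genes, 2218 of 8935 were called higher with total library size and 2693 of 12163 with no filter. With 1 library left out, between 2483 and 2866 genes were called higher.

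Same-numbered libraries did not deviate together (correlations of -0.01, 0.15 and -0.26), so the numbers were not taken to pair them. With a replicate block, 2598 genes were called higher and 3062 lower, beside 2734 and 3297 without it, and 5 and 2 of the 10 genes. Under the block app-RS was at -0.93 (adjusted p = 0.0708, edgeR), and Rho1, ATP6AP2 and kug were not called. Of the named results no other call changed under the block. The effect of depth and of the number of libraries on these calls was not tested beyond the libraries left out.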
